A study of Mus musculus with 12 samples.

Results

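Cytosolic and mitochondrial chaperones were followed on the arrays by gene symbol: the DnaJ proteins of the A, B and C classes, the Hsp70 and Hsp110 proteins, Hsp90 and Trap1, the chaperonins, prefoldin, the BAG proteins, and the adaptors Stip1 and St13. Hspa5 and Dnajb9, chaperones of the endoplasmic reticulum, were left out. The symbols took in 98 probes of 77 genes. Kept were probes with a detection p-value under 0.05 throughout at least 1 group of arrays. These came to 62 probes of 54 genes, out of 10935 kept probes among the 24613 of the array. The rule used no difference between groups, though a probe could pass through only the groups where it was higher. The rule read names, so J-domain proteins of other places came in as well. Examples are Dnajb12 of the endoplasmic reticulum membrane and Dnajc8, a nuclear protein bound to the splicing machinery.

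Chaperones bind proteins that are unfolded and let them reach or regain their shape at the cost of ATP. A nascent chain or a damaged protein is delivered to Hsp70 by a J-domain (DnaJ) protein, is released with the help of exchange factors of the BAG and Hsp110 families, and may pass through Stip1 to Hsp90, while actin and tubulin go from prefoldin to the ring-shaped cytosolic chaperonin built of Tcp1 and the Cct subunits. Mitochondria hold a separate set, with Hspa9 (Hsp70), Dnaja3 (DnaJ), Trap1 (Hsp90) and Hspd1 (Hsp60), and many genes of both sets answer to heat shock factors.

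The study asked how serum from calorie-restricted animals changes astrocytes of a mouse strain with accelerated senescence. Primary cultures enriched in astrocytes came from the cerebral cortex of SAMP8 (senescence-accelerated prone 8) pups and of pups of the control strain SAMR1 (senescence-resistant 1), taken at 2 days of age. Both inbred lines go back to AKR/J mice, and according to the submitters they differ genetically beyond the senescence traits. At 21 days in culture they received medium with 10% heat-inactivated rat serum for 48 h, from rats with free access to food (ad libitum, AL) or from rats on a caloric restriction diet (CR). There were 4 groups, named by strain and serum (SAMP8-AL for example), with 3 samples in each and 12 arrays in all. The animals themselves were not restricted, all cultures carried rat serum, and the submitters describe a minority of microglia and traces of oligodendroglia in the cultures of both strains. The labels call the samples biological replicates and do not say which pups went into which culture.

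Levels are normalized log2 intensities, on which 0 is the mean of all probes of the same array, and they are compared only within a probe. A probe was called when limma's test over all 12 arrays gave an adjusted p under 0.05 (Benjamini-Hochberg over the 10935 kept probes). Between 41.2% and 46.7% of all probes were detected in an array. The arrays fell into a pair of sets that the labels do not name: the lowest intensity lay between 7.0 and 8.2 in 8 arrays, here the first array set, and between 40.1 and 42.9 in replicates 2 and 3 of both SAMP8 groups, here the second array set. Called strain differences of members are therefore accompanied by the value from a fit that has the array set as a term and from the first set alone. All SAMR1 arrays are in the first set. Over both sera the estimates of these fits are therefore the same by design and are not separate checks. Both rest on replicate 1 of the SAMP8 groups. Of the marker lists, 15 of 18 astrocyte genes were detected, Gfap and Aqp4 included. Over both sera 4 of the 15 were called higher in SAMP8 (Aqp4, Aldoc, Glul and Slc4a4), beside 9.71% of all probes. A log2 fold change below 0 was found for 4 others of the 15. Of 20 microglial genes 16 were detected, and their summed linear level (1 being the mean of an array) ran from 164.8 to 445.3 in the 6 SAMR1 samples and from 129.7 to 177.7 in the 6 SAMP8 samples. Over both sera 11 of these 16 were called lower and 1 higher in SAMP8, beside 5.93% and 9.71% of all probes. A summed list of 10 detected mitosis genes ran from 9.36 to 22.2 in SAMR1 and from 8.20 to 9.21 in SAMP8. All 13 detected fibroblast and meningeal genes had a log2 fold change above 0 in SAMP8 over both sera, with a median of 0.48. Of all probes 43.0% were below 0 there. Col1a2, Pdgfrb and Igf2 were called higher among the 13 genes, beside 9.71% of all probes. The second array set held the highest values of some of the 13 genes. Dcn was at 3.11 to 3.68 in the 4 arrays of that set, at 0.21 and 0.65 in the other SAMP8 arrays and at 0.88 to 2.27 in SAMR1. Lower RNA per cell and fewer cells of a type cannot be told apart in these whole cultures, and the part of these lists in the chaperone values was not tested.

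RefSeq promoter windows, 250 bases before to 50 after a transcription start on GRCm38.p6, were at hand for 44 of the 54 genes. They were searched on both strands for the 3-unit heat shock element bound by heat shock factors, GAANNTTCNNGAA, whose reverse complement is TTCNNGAANNTTC. The element stood in a window of 3 of the 44 genes, Hspd1, Dnajb6 and Hsph1, and in 0.603% of the 32851 windows of all genes. A gene counted if any of its windows matched, and some genes have several windows. The count of genes and the share of windows are therefore unlike measures. The element began at position -144 from the start in Hspd1 and at -46 in Dnajb6. In Hsph1 it lay 16 bases past the nearer of its starts and read TTCTGGAAAGTTC. The bases upstream of the start are shown for Hspd1, the member of the 3 that was called, and for Dnajb6, with the element in capitals. For Pfdn2 and Pfdn6, whose values come further on, 120 bases of the window are shown. Capitals there mark the ETS core CCGGAAG or its reverse complement CTTCCGG. It was in a window of 12 of the 44 genes and in 8.86% of all windows, again genes beside windows. In Hspd1 and Dnajb6 the heat shock element overlaps an ETS core. Neither motif was found in the whole window of Pfdn2, and a match is only a run of letters.
Hspd1, chr1:55087933-55088132, minus strand: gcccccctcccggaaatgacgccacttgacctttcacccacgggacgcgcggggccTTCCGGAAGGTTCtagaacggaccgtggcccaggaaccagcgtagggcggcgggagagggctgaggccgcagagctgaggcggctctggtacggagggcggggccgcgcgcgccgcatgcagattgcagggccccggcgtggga
Dnajb6, chr5:29735778-29735897, plus strand: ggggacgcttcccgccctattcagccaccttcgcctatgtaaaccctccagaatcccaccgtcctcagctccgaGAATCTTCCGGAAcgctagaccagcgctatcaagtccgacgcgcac
Pfdn2, chr1:171344834-171344953, plus strand: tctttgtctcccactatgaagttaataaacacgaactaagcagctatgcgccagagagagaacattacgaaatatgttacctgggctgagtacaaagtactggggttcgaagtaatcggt
Pfdn6, chr17:33940344-33940463, minus strand: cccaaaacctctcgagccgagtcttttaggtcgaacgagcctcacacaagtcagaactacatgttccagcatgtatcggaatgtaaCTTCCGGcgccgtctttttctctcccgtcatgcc

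In AL serum, SAMP8 astrocytes differed from SAMR1 astrocytes (P8AL-R1AL) in 3 of the 62 chaperone probes: Dnajc5 and Dnajc25 were higher and Pfdn2 was lower. This is 4.84% of the members, below the 9.67% of all probes tested that were called (6.15% higher and 3.51% lower). After CR serum (P8CR-R1CR) no chaperone probe was called in limma's test, against 2.8% of all probes. There 7 members had an unadjusted p under 0.05 in limma's test (15.9% of all probes). With that p and the Z ratio of the study's methods, 7 passed (12.5% of all probes). Over both sera 4 members were called, with Hspd1 as the further one and lower in SAMP8. These are 6.45% of the members, against 15.6% of all probes (9.71% higher and 5.93% lower). The strain comparisons within a serum share their samples with the one over both sera. The median log2 fold change of the 62 probes was -0.04 in P8AL-R1AL, 0.01 in P8CR-R1CR and -0.02 over both sera, beside 0.03, 0.04 and 0.04 for all probes.

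**Figure D1:**
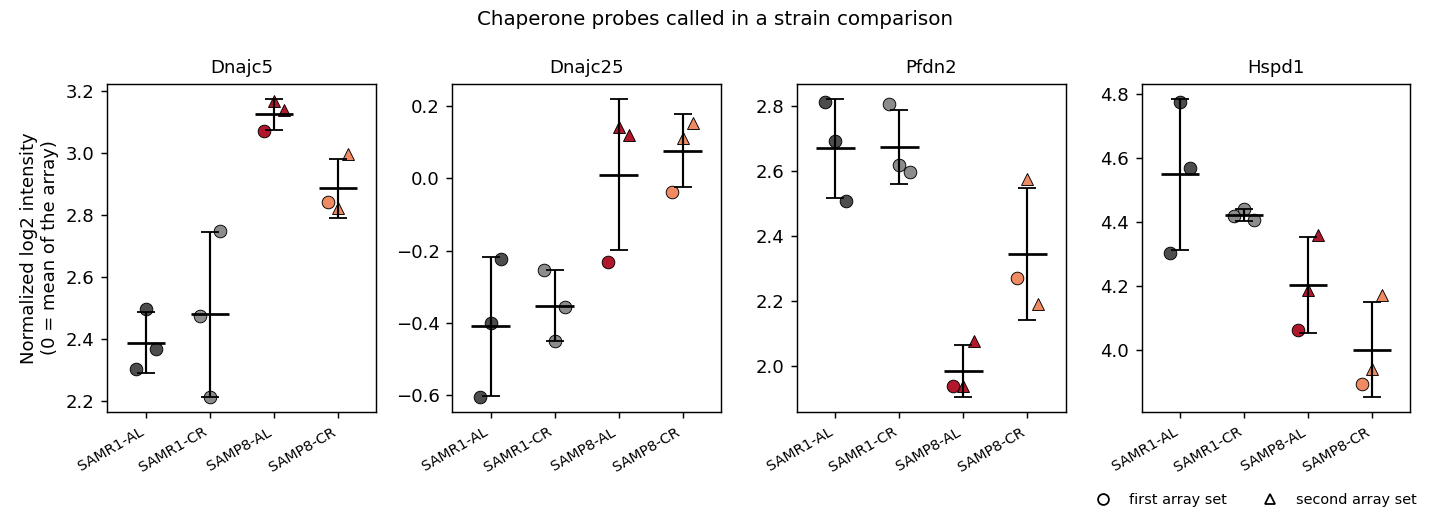
Normalized log2 intensity (y axis, 0 being the mean of the array) of the 4 probes called in a strain comparison, in each of the 12 samples by group (x axis). Circles are arrays of the first set and triangles of the second, bars give the mean and SD of 3 samples, and the y axis differs between panels. All 6 SAMP8 values of Dnajc5 lie above all 6 SAMR1 values, and the lowest Pfdn2 values are those of SAMP8-AL.

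Dnajc5 encodes the cysteine string protein, a J-domain protein of secretory vesicles that recruits Hsp70 to proteins of exocytosis. Its level was 2.30, 2.50 and 2.37 in SAMR1-AL and 3.07, 3.17 and 3.14 in SAMP8-AL. It was 2.48, 2.22 and 2.75 in SAMR1-CR and 2.84, 2.82 and 3.00 in SAMP8-CR. Every SAMP8 sample was above every SAMR1 sample, and the 3 SAMP8-CR samples lay below the 3 SAMP8-AL samples. The strain difference was 0.74 ± 0.15 (log2, SE) in AL serum, 1.67-fold (limma, adjusted p = 0.0084), and 0.41 ± 0.15 in CR serum (adjusted p = 0.18). The difference between these, -0.33 ± 0.21, was not called (adjusted p = 0.965). Over both sera Dnajc5 was 0.57 ± 0.10 higher, 1.49-fold (limma, adjusted p = 0.0023). It was 0.52 higher with the array set as a block (adjusted p = 0.052), by design the same estimate as within the first set. In a fit of 10 samples, leaving out the first replicate of SAMR1-AL and of SAMP8-AL, which a gene table of the study does not list, the difference in AL serum was 0.72 (adjusted p = 0.052).

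Dnajc25, another J-domain protein, was detected in 11 of the 12 arrays. Its level was -0.61, -0.40 and -0.22 in SAMR1-AL and -0.25, -0.45 and -0.36 in SAMR1-CR. It was -0.23, 0.14 and 0.12 in SAMP8-AL and -0.04, 0.11 and 0.15 in SAMP8-CR. SAMP8-AL replicate 1, of the first array set, fell among the SAMR1 samples, and the 4 samples of the second set held the 4 highest values, as they did for the fibroblast gene Dcn. The difference was 0.42 ± 0.12 in AL serum (limma, adjusted p = 0.047), 0.43 ± 0.12 in CR serum (adjusted p = 0.088) and 0.42 ± 0.09 over both sera, 1.34-fold (adjusted p = 0.0051). With the array set as a block it was 0.25 over both sera (adjusted p = 0.20), by design the same estimate as within the first set. The call in AL serum was lost when any of 8 samples was left out and kept only without SAMP8-AL replicate 1, SAMR1-AL replicate 3, SAMR1-CR replicate 1 or SAMR1-CR replicate 2.

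Hspd1 encodes Hsp60, the barrel that folds proteins imported into the mitochondrial matrix. On its brighter probe the level was 4.30, 4.78 and 4.57 in SAMR1-AL and 4.42, 4.44 and 4.41 in SAMR1-CR. It was 4.06, 4.19 and 4.36 in SAMP8-AL and 3.89, 3.94 and 4.17 in SAMP8-CR. The SAMP8-CR samples were all below the SAMR1-CR samples, while in AL serum SAMP8 replicate 3 overlapped SAMR1 replicate 1. Over both sera Hspd1 fell by 0.38 in SAMP8 (SE 0.12, 1.30-fold; limma, adjusted p = 0.041). The call was lost with no detection filter (adjusted p = 0.084), under quantile normalization (adjusted p = 0.0834) and with normexp background correction (adjusted p = 0.0816). It was also lost with the array set as a block (log2 fold change -0.51, adjusted p = 0.092), by design the same estimate as within the first set. On leaving out a sample the call was kept only without SAMR1-AL replicate 1 or SAMP8-CR replicate 3 and lost without any of the other 10. The other Hspd1 probe, of lower signal, went the other way over both sera by 0.18 ± 0.17 (adjusted p = 0.49), and its values spread from 0.11 to 0.92 within SAMR1-AL.

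The other matrix chaperones had lower mean levels in SAMP8 without a call. Dnaja3, the J-domain partner of matrix Hsp70, was at 3.28, 3.38 and 3.03 in SAMR1-AL against 2.97, 2.76 and 3.00 in SAMP8-AL. It was at 3.03, 3.20 and 3.19 in SAMR1-CR against 2.96, 2.79 and 2.89 in SAMP8-CR. All 6 SAMP8 samples were below all 6 SAMR1 samples, as for Dnajc5 in the other direction. These were the 2 members whose strains did not overlap over both sera, against 7.09% of all probes. The difference over both sera was -0.29 ± 0.10 (limma, adjusted p = 0.061), and it was called without SAMR1-CR replicate 1 or without SAMR1-AL replicate 3. Hspa9 gave -0.20 ± 0.11 (adjusted p = 0.24) and Trap1 -0.24 ± 0.13 (adjusted p = 0.22). Of the 5 detected mitochondrial genes of the list, 4 had a log2 fold change below 0 over both sera (43.0% of all probes) and 1 was called, with a median of -0.24 on the brightest probes. The exception was Dnajc30, a J-domain protein of the inner membrane, at 0.06 ± 0.11.

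A further list of 12 detected genes of mitochondrial protein quality control had a median of -0.11 over both sera, with 1 call. Not all of them encode matrix proteins, Htra2, Yme1l1 and Phb2 being exceptions. The median was -0.23 in AL serum, where 6 of the 12 were lower in SAMP8 without overlap (12.6% of all probes), and -0.05 in CR serum, where none was (8.41% of all probes). The call was Clpp, the matrix protease, at 3.46, 3.42 and 3.58 in SAMR1-AL and 2.76, 2.84 and 2.82 in SAMP8-AL. It was at 3.17, 3.62 and 3.16 in SAMR1-CR and 3.22, 3.13 and 2.78 in SAMP8-CR. The strains were apart in AL serum and overlapped in CR serum. Clpp fell by 0.68 in SAMP8 in AL serum (SE 0.16; limma, adjusted p = 0.020) and differed by -0.28 ± 0.16 in CR serum (adjusted p = 0.45). For Clpp no value with the array set as a term is given here.

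**Figure D2:**
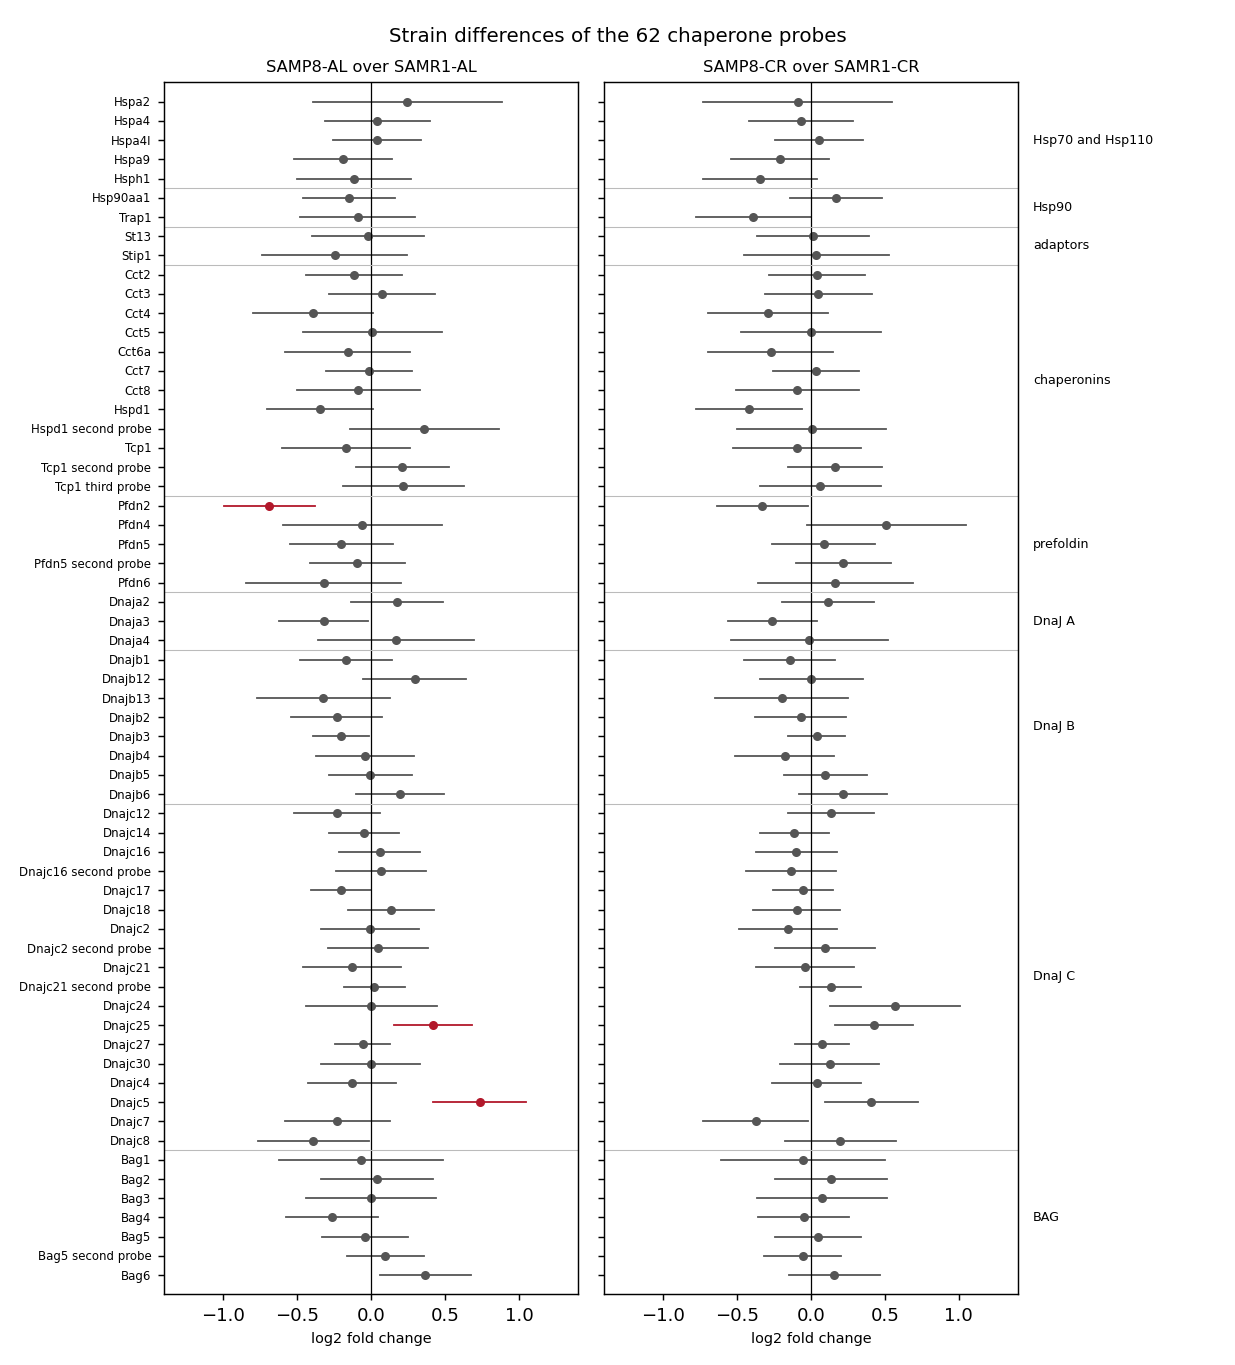
Log2 fold change (x axis) of SAMP8 over SAMR1 for each of the 62 chaperone probes (y axis, by family), in AL serum on the left and CR serum on the right. Points are limma estimates and lines their 95% intervals, and red marks an adjusted p under 0.05. The estimates run from -0.69 (Pfdn2) to 0.74 (Dnajc5) in AL serum, and none is red in CR serum.

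Of the Hsp70, Hsp110, Hsp90 and adaptor families and the J-domain proteins of classes A and B, no member was called in any strain comparison. Over both sera the exchange factor Hsph1 (Hsp110) differed by -0.23 ± 0.13 (limma, adjusted p = 0.24), Hspa4 by -0.01 ± 0.12 and Hspa4l by 0.05 ± 0.10. Dnajb1, the classic inducible Hsp40, differed by -0.16 ± 0.10, Hsp90aa1, the inducible cytosolic Hsp90, by 0.01 ± 0.10, and the adaptors Stip1 and St13, which bridge Hsp70 and Hsp90 and hold Hsp70 in its substrate-bound state, by -0.10 ± 0.16 and -0.002 ± 0.13. For 47 of the 62 members (75.8%, against 68.6% of all probes) the 95% interval of the strain difference over both sera lay within 0.5 of 0 on the log2 scale. Of the 13 listed targets of heat shock factors, 7 were detected genes here, and their median was -0.10 with only Hspd1 called.

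Of the cytosolic chaperonin subunits, none was called between strains. Cct2, Cct3, Cct5, Cct7 and Cct8 differed over both sera by -0.09 to 0.06 with SE from 0.10 to 0.16. Cct6a differed by -0.22 ± 0.14 (limma, adjusted p = 0.32) and Cct4 by -0.34 ± 0.13 (adjusted p = 0.099). The level of Cct4 was 3.58, 4.16 and 4.33 in SAMR1-AL, 3.84, 3.90 and 3.72 in SAMR1-CR, 3.81, 3.49 and 3.59 in SAMP8-AL and 3.42, 3.46 and 3.72 in SAMP8-CR. SAMR1-AL replicate 1 was low in its group, and Cct4 was called over both sera without that sample and in the fit of 10 samples (log2 fold change -0.50, adjusted p = 0.016). The 3 Tcp1 probes disagreed in sign, at -0.13 ± 0.14, 0.19 ± 0.10 and 0.14 ± 0.14, so no direction is given for Tcp1.

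In the BAG family the largest strain difference over both sera was that of Bag6, a factor in the quality control of membrane proteins made in the cytosol, with 0.26 ± 0.10 (limma, adjusted p = 0.094). Its level was 1.72, 1.78 and 1.61 in SAMR1-AL and 1.86, 2.28 and 2.07 in SAMP8-AL, which did not overlap, and 1.47, 1.71 and 1.84 in SAMR1-CR and 1.81, 1.88 and 1.80 in SAMP8-CR, which did. With the array set as a block the difference was 0.15. Bag3, which links Hsp70 to autophagy, differed by 0.04 ± 0.15 and Bag4 by -0.16 ± 0.10. Dnajb6, a suppressor of protein aggregates, differed by 0.21 ± 0.10 (adjusted p = 0.17), and Dnaja2, a cytosolic DnaJ of class A, by 0.15 ± 0.10.

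The class C of the J-domain proteins, the largest family with 18 probes, had a median strain difference of -0.03 over both sera, with Dnajc5 and Dnajc25 as its calls. Dnajc7, a cochaperone whose repeats bind both Hsp70 and Hsp90, was at 3.83, 4.24 and 4.09 in SAMR1-CR and at 3.58, 3.66 and 3.80 in SAMP8-CR. These groups did not overlap, and in AL serum they did, with a difference over both sera of -0.30 ± 0.12 (limma, adjusted p = 0.097). Dnajc24, which takes part in making diphthamide on a translation elongation factor, was at 1.63, 0.85 and 0.75 in SAMR1-CR and at 1.82, 1.53 and 1.59 in SAMP8-CR. SAMR1-CR replicate 1 lay among the SAMP8 values, and the difference there was 0.57 ± 0.21 (adjusted p = 0.18), called when that replicate was left out.

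In the serum comparisons none of the 62 chaperone probes was called in SAMR1 (R1CR-R1AL), in SAMP8 (P8CR-P8AL) or over both strains, and 0.0% of all probes were. At an unadjusted p under 0.05 the counts were 1 (3.41% of all probes), 4 (5.33%) and 2 (3.67%). The Z ratio also gave 1 (3.26% of all probes), 4 (4.95%) and 2 (3.4%). The median log2 fold change of the members was -0.07 in each strain, against 0.01 in each for all probes. For 56 of the 62 members (90.3%, against 86.5% of all probes) the 95% interval of the serum difference over both strains lay within 0.5 of 0. No member was called for a strain-dependent serum response in limma's interaction term. There 1 had an unadjusted p under 0.05, which was Dnajc8 at 0.59 ± 0.25 (adjusted p = 0.965), and 4.38% of all probes did. The Z ratio gave 1 as well (4.1% of all probes). The labels do not say that replicate numbers pair AL and CR samples. With the numbers of each strain as blocks, no member was called either. The counts at an unadjusted p under 0.05 were then 1 (6.74% of all probes) in SAMR1, 6 (9.96%) in SAMP8, 4 (7.82%) over both strains and 4 (8.3%) for the interaction.

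Groups did not overlap for 19 of the 62 members in P8CR-P8AL (19.4% of all probes), for 12 in P8AL-R1AL (31.3% of all probes), for 9 in P8CR-R1CR (20.0% of all probes) and for 1 in R1CR-R1AL (3.9% of all probes). Of the 19 in SAMP8, 12 were higher (11.0% of all probes) and 7 lower (8.38% of all probes) after CR serum. The 2 strain comparisons and the 2 serum comparisons share groups. The lower ones included Dnajc5, Hspa4, Hsph1, Trap1 and Cct6a, a subunit of the cytosolic chaperonin. Before normalization the median intensities of these named probes were higher in SAMP8-CR than in SAMP8-AL, such as 1122.3 against 1068.5 for Trap1. The higher ones included all 5 prefoldin probes, of 4 genes, and Dnajb3. In P8AL-R1AL the groups of Dnajb3 did not overlap either. Dnajb3 passed the detection filter only through SAMR1-AL and SAMP8-CR, its highest groups, so neither result is free of the filter.

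**Figure D3:**
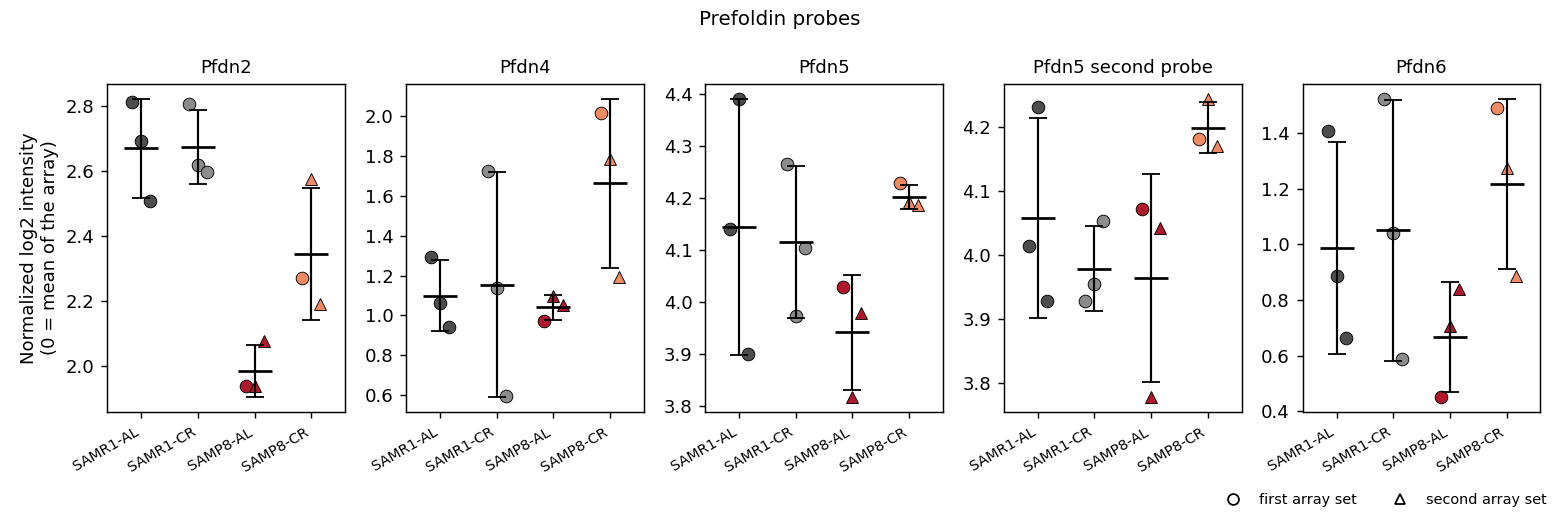
Normalized log2 intensity (y axis, 0 being the mean of the array) of the 5 prefoldin probes in each of the 12 samples by group (x axis). Circles are arrays of the first set and triangles of the second, bars give the mean and SD of 3 samples, and the y axis differs between panels. In every panel the 3 SAMP8-CR samples lie above the 3 SAMP8-AL samples, while the SAMR1 groups overlap.

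Prefoldin is a jellyfish-shaped complex of alpha and beta subunits that catches new actin and tubulin chains. Pfdn2, a beta subunit, was at 2.81, 2.69 and 2.51 in SAMR1-AL and at 2.81, 2.62 and 2.60 in SAMR1-CR. It was at 1.94, 1.94 and 2.08 in SAMP8-AL and at 2.27, 2.57 and 2.19 in SAMP8-CR. SAMP8-AL was the lowest group with no overlap with any other, and SAMP8-CR lay between it and SAMR1-CR. In AL serum Pfdn2 fell by 0.69 in SAMP8 (SE 0.14, 1.61-fold; limma, adjusted p = 0.0098), and in CR serum the difference was -0.33 ± 0.14 (adjusted p = 0.27). Within SAMP8 it was 0.36 ± 0.14 higher after CR serum (adjusted p = 0.82), and the difference between the serum effects of the strains was 0.36 ± 0.20 (adjusted p = 0.965). Over both sera Pfdn2 fell by 0.51 in SAMP8 (SE 0.10, 1.42-fold; adjusted p = 0.0042). It alone of the 4 was still called there with the array set as a block, at -0.57 (adjusted p = 0.030). That estimate is by design the one of the first set alone, and rests on replicate 1 of SAMP8-AL and of SAMP8-CR. With 10 samples the difference in AL serum was -0.59 (adjusted p = 0.082), and within the first set the difference in AL serum was -0.73.

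The other prefoldin subunits showed no strain call. Pfdn4, also a beta subunit, was at 0.97, 1.10 and 1.05 in SAMP8-AL and at 2.01, 1.78 and 1.19 in SAMP8-CR. Pfdn6, another beta subunit, was at 0.45, 0.71 and 0.84 in SAMP8-AL and at 1.49, 1.28 and 0.89 in SAMP8-CR. In both genes the order of the SAMP8-CR samples was the same, with replicate 1 the highest and replicate 3 close to SAMP8-AL. The differences were 0.62 ± 0.25 for Pfdn4 and 0.55 ± 0.25 for Pfdn6 (limma, adjusted p = 0.82 for both), and under quantile normalization 0.59 and 0.50. With the replicate numbers of each strain as blocks their SE was 0.19 and 0.18 (limma, adjusted p = 0.39 for both). Pfdn5, an alpha subunit with a pair of probes, gave 0.26 ± 0.16 and 0.23 ± 0.15.

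In SAMR1 the serum differences of the 5 prefoldin probes lay between -0.08 and 0.06. There replicate 1 held the highest values of Pfdn4, 1.29 in AL and 1.72 in CR serum, and of Pfdn6, 1.41 and 1.52. The SD of log2 intensity over all probes of an array, by which levels were scaled, was also largest in replicate 1 of SAMR1-AL (1.55), SAMR1-CR (1.54) and SAMP8-CR (1.61) within their groups, against 1.28 in SAMP8-AL replicate 1. Its part in these values was not tested. A prefoldin subunit outside the symbol rule, Vbp1, an alpha subunit, was at 3.13, 2.48 and 2.84 in SAMP8-AL and at 2.79, 2.67 and 2.99 in SAMP8-CR, which overlap (difference -0.00016 ± 0.19).

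Of 10 detected partners and clients of prefoldin and the chaperonin, 1 was called lower and 1 higher in P8AL-R1AL, beside 9.67% of all probes called. These were Uxt and Uri1, both subunits of a prefoldin-like complex. Uxt was at 2.00, 1.63 and 1.80 in SAMR1-AL, 1.85, 1.80 and 1.32 in SAMR1-CR, 0.97, 1.17 and 1.29 in SAMP8-AL and 1.75, 1.91 and 1.65 in SAMP8-CR. SAMP8-AL was the lowest group, as for Pfdn2, and SAMP8-CR lay among the SAMR1 samples. In AL serum Uxt fell by 0.67 in SAMP8 (SE 0.17; limma, adjusted p = 0.025), in CR serum it differed by 0.12 ± 0.17, and within SAMP8 by 0.62 ± 0.17 between sera (adjusted p = 0.82). Uri1 was 0.55 ± 0.16 higher in SAMP8 in AL serum (adjusted p = 0.041) and 0.38 ± 0.11 higher over both sera (adjusted p = 0.030). No value with the array set as a term is given here for Uxt or Uri1. The 10 genes had a median of -0.07 in P8AL-R1AL.

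**Figure D4:**
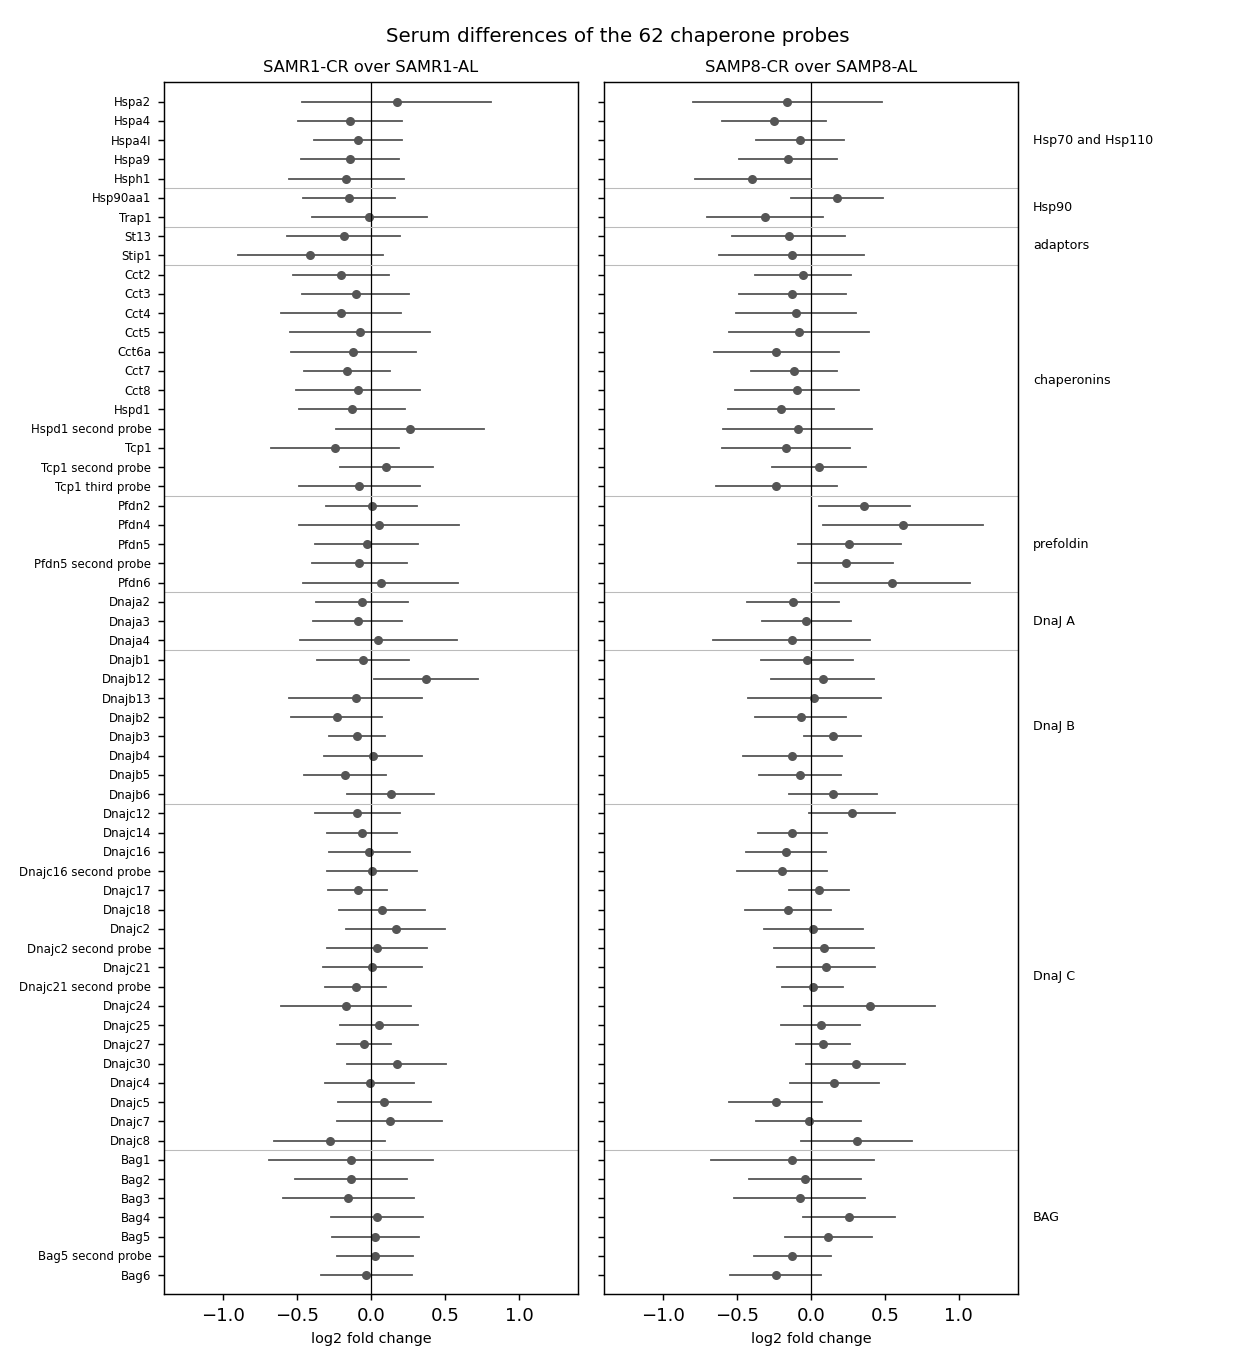
Log2 fold change (x axis) of CR over AL serum for each of the 62 chaperone probes (y axis, by family), in SAMR1 on the left and SAMP8 on the right. Points are limma estimates and lines their 95% intervals, and none reached an adjusted p under 0.05. The estimates run from -0.41 (Stip1) to 0.37 (Dnajb12) in SAMR1 and from -0.40 (Hsph1) to 0.62 (Pfdn4) in SAMP8.

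Outside prefoldin, Hsph1 had the lowest serum estimate in SAMP8. Its level was 4.13, 3.79 and 3.99 in SAMP8-AL and 3.53, 3.63 and 3.57 in SAMP8-CR. It was 3.91, 4.23 and 4.12 in SAMR1-AL and 3.53, 4.13 and 4.10 in SAMR1-CR. The SAMP8 groups did not overlap, and in SAMR1 only replicate 1 was low after CR serum. The difference was -0.40 ± 0.18 in SAMP8 and -0.28 ± 0.13 over both strains (limma, adjusted p = 0.82 and 0.97). Hsph1 and Hspa4 were lower in the CR sample than in the AL sample of the same number in all 6 cases. These differences ran from -0.60 to -0.02 and from -0.28 to -0.08, and Dnajb6 was higher in all 6. Of all probes 1.22% were lower and 2.4% higher in all 6. The labels do not pair these samples. In SAMR1 the deviations of the replicate 2 samples from their group means correlated at only 0.0925 between sera. With the blocks the serum difference over both strains was -0.28 ± 0.12 for Hsph1 and -0.20 ± 0.10 for Hspa4 (limma, adjusted p = 0.58 and 0.65). Before normalization the group medians of intensity of both probes were higher with CR serum. For Hsph1 they were 2130 in SAMP8-AL, 2314 in SAMP8-CR, 2190 in SAMR1-AL and 2396 in SAMR1-CR. For Hspa4 they were 538, 556, 526 and 528 in the same order. The lower values thus hold on the normalized scale, and the part of the array scaling in them was not tested. All 5 probes of the Hsp70 and Hsp110 family had an estimate below 0 in P8CR-P8AL, with a median of -0.16, and 11 of the 12 chaperonin probes did, with a median of -0.11. Of all probes 47.8% were below 0 there.

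In SAMR1 the member with an unadjusted p under 0.05 was Dnajb12, at 0.29, 0.27 and -0.03 in AL and 0.76, 0.23 and 0.65 in CR serum, which overlap. Its difference was 0.37 ± 0.16 (limma, adjusted p = 0.999). Dnajc30 was 0.24 ± 0.11 higher with CR serum over both strains (adjusted p = 0.97), and its 3 SAMP8-CR samples, at 1.70, 1.65 and 1.46, lay above the SAMP8-AL samples at 1.26, 1.28 and 1.35. Of the 12 chaperonin probes 10 had an estimate below 0 in R1CR-R1AL, where 46.1% of all probes did, and for 5 of these SAMR1-AL replicate 2 held the highest value of the 12 samples.

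Partner proteins of Hsp70 and Hsp90 and the small heat shock proteins included further strain calls. Of 23 detected genes, 2 were called higher and 3 lower in SAMP8 over both sera, with a median of -0.02. These 5 of 23 stand beside 15.6% of all probes called. Hspb1 (Hsp27), an ATP-independent holder of unfolding proteins, was at 5.69, 6.54 and 6.79 in SAMR1-AL and 4.54, 4.50 and 4.31 in SAMP8-AL. It was at 5.14, 6.17 and 6.71 in SAMR1-CR and 3.77, 4.14 and 4.39 in SAMP8-CR. Every SAMP8 sample was below every SAMR1 sample, and the gene fell by 1.90 over both sera (SE 0.25; limma, adjusted p = 0.00021). Cryab, another small heat shock protein, fell by 0.77 (SE 0.20; adjusted p = 0.017) and Fkbp5, an immunophilin of Hsp90, by 0.48 (SE 0.12; adjusted p = 0.017). Hspbp1, an exchange factor of Hsp70, was 0.55 ± 0.14 higher (adjusted p = 0.016), and Ahsa2, a relative of the Hsp90 activator Ahsa1, 0.27 ± 0.07 higher (adjusted p = 0.018). For these 5 genes no value with the array set as a term is given here.

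The SD between replicates had a median of 0.17 over the 62 members and of 0.19 over all kept probes. Detection was complete for 59 of them, in all 12 arrays. The remaining ones were Dnajc25, Dnajb3, detected in 10 arrays, and Dnajc27, detected in 9. Just outside the rule stood Dnajc15, a mitochondrial J-domain protein detected in 6 arrays but in no whole group, and Pfdn1, detected in 3. Of the 36 probes not kept, 30 were detected in no array, and 23 genes had no kept probe, among them Dnaja1, the endoplasmic reticulum proteins Dnajc1, Dnajc3, Dnajc10 and Hspa13, and Dnajc19 of the mitochondrial import motor. Hspa8, Hspa1a, Hspa1b, Hsp90ab1 and Hspe1 carried no probe under those symbols in the annotation used here and were not analysed here.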

How the data were processed

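Total RNA of 12 astrocyte cultures was hybridised to Illumina MouseRef-8 arrays of 24613 probes. The authors deposited linear bead intensity values, neither normalized nor background corrected, each with its detection p-value. The authors also deposited a Z score per probe (log intensity minus the mean of the array, divided by its SD), which was recomputed from the intensities and differed by rounding only. Scanner software and its version are not given in the sources used here.

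Here the Z score of log2 intensity was put back on a log2 scale with 1 factor for all arrays, their mean SD of 1.42. Probes detected (p-value under 0.05) throughout a group were fitted with limma 3.58.1 in R 4.3.3 (lmFit, eBayes with trend, all 12 samples, group means), with Benjamini-Hochberg adjustment over the 10935 kept probes. The scripts were tested on simulated data. Probe genes came from the platform annotation, in which 20984 probes had 1 gene symbol, 1 had several and 3628 had none. The chaperone genes were matched by symbol, and gene lists used the brightest kept probe of each gene.

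Described were every probe called in any of 7 comparisons, core chaperones and detected prefoldin subunits whatever their values, and in each family the probes with the smallest p for strain and for serum. Of 25 core genes 19 had a kept probe. Genes of the partner lists with a call, Dnajb3, Dnajc7, Dnajc8, Dnajc15, Dnajc24 and Dnajc27 fall outside this rule and were chosen after their values were seen. The members, the gene lists and the alternatives were chosen with earlier results of these data known. Alternatives were 10 samples, the array set as a block or only its first set, a replicate block and quantile normalization. Others were normexp with an offset of 16, other detection filters, leaving out each sample and the Z ratio of the methods. The Z ratio had to be at least 1.5, with an unadjusted p under 0.05 from limma rather than from the study's own test. Whether replicate numbers pair AL and CR samples within a strain was checked by the correlation of deviations from the group means. It was 0.572, 0.0925 and 0.13 in SAMR1, where 1 did not pass 0.1. In SAMP8 it was 0.383, 0.439 and 0.116, and all passed. Yet SAMP8-AL replicate 3 correlated more with SAMP8-CR replicate 2 (0.191) than with SAMP8-CR replicate 3 (0.116). Replicate 1 was also the only array of the first set in each SAMP8 group. Shared number and array set cannot be told apart there. The main fit took no samples as pairs. Serum effects were also fitted with the numbers of each strain as blocks, an alternative chosen after seeing the data. Promoter sequences are from RefSeq, GRCm38.p6.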

Additional observations from a re-analysis of the deposited data

How the results depend on the processing

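Of 484 alternative values of the 24 single-probe results examined, 440 kept their direction and their side of the threshold, 38 lost the call, 6 gained one and none changed sign. The number of chaperone probes called in P8AL-R1AL was 1 with 10 samples, where it was Cct4, and 0 within the first array set, against 3. Over both sera it was 1 with the array set as a block (Pfdn2) and 0 within the first set, against 4, and 870 and 436 of all probes were called there, against 1710. In P8CR-R1CR it was 1 (Dnajc25) with 10 samples and 1 with the replicate block, against 0. The Z ratio of the methods, with limma's unadjusted p, gave 7 in P8CR-R1CR, 4 in P8CR-P8AL and 1 in R1CR-R1AL, against 0 in each. It gave 2 for serum over both strains and 1 for the interaction, also against 0. In P8AL-R1AL it gave 3 (18.3% of all probes), against 3, and over both sera 5 (17.7% of all probes), against 4. The cause of the other changes was not tested, but the first set holds only 8 samples and 1 of each SAMP8 group.

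Leaving out each sample gave from 2 to 3 chaperone probes in P8AL-R1AL, from 0 to 1 in P8CR-R1CR (Dnajc24 without SAMR1-CR replicate 1), from 3 to 6 over both sera (6 without SAMR1-CR replicate 1, with Dnaja3, Dnajc24 and Trap1 added and Hspd1 lost) and 0 in the serum comparisons and the interaction. Dnajc5 and Pfdn2 were called in P8AL-R1AL and over both sera without any 1 sample. The median of the members in P8CR-P8AL, -0.07, was -0.0077 within the first set and from -0.08 to -0.01 on leaving out a sample. Quantile normalization and normexp moved the median of all probes by at most 0.031.

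The labels number the replicates 1 to 3 in each group. Over the 18 pairs of samples with the same number, their deviations from the group means correlated between -0.25 and 0.57, with 10 over 0.1. Of 12 samples 8 correlated best with their own number. These counts mix pairs within and across strains, so they do not decide on pairing across strains. Across strains alone the same-number correlations ran from -0.25 to 0.38. The numbers were not taken to pair samples across strains. The replicate block over all groups left the counts at 3 in P8AL-R1AL, 4 over both sera and 0 in the serum comparisons. The replicate block within each strain, chosen after seeing the data, gave 0 members in each serum comparison and the interaction. Of all probes it called 3 in R1CR-R1AL, 1 for serum over both strains and 0 in P8CR-P8AL, against 0 in each. With 3 samples a group, a chaperone that changed by less than about the 95% intervals shown cannot be told from an unchanged one, and probes near background understate changes.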

Other observations

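SAMR1-AL replicate 2 held the highest value of the 12 samples for 13 of the 62 chaperone probes, where it did so for 8.12% of all probes. Stip1 was at 4.81 there and between 3.56 and 4.03 in the other 11 samples, Tcp1 at 4.82 against 3.86 to 4.28, Cct3 at 3.10 against 2.43 to 2.79, and Cct2 at 2.09 against 1.44 to 1.78. These genes were chosen after their values were seen, and the cause was not tested.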
